A study of Mus musculus with 12 samples.

Results

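The nuclear genes for the subunits of the oxidative phosphorylation machinery were followed in Ly6G+ spleen cells of mice at 4 ages. Members were taken by name. They were the protein-coding genes of the Ndufa, Ndufb, Ndufc, Ndufs and Ndufv series (complex I), Sdha to Sdhd (complex II), the Uqcr genes and Cyc1 (complex III), the Cox4 to Cox8 genes (complex IV), the Atp5 genes (complex V, the ATP synthase) and Cycs (cytochrome c). Assembly factors and 10 genes annotated as pseudogenes were left out. This gave 86 members among 38887 gene identifiers: 35 of complex I, 4 of complex II, 9 of complex III, 20 of complex IV, 17 of complex V and Cycs. Ndufa4 and its relative Ndufa4l2 were counted with complex IV, where the Ndufa4 protein is now placed. Of the 86 members, 80 passed the filter on low counts and were tested. The other 6 were Cox7a1, Cox7b2, Cox8b, Cox8c, Ndufa4l2 and Atp5g2. The subunit genes Ndufab1 and Usmg5 and the ATP synthase inhibitor Atpif1 carry other names and were not members. Atp5s, kept by its name, is not counted among the established subunits of the enzyme. The 13 subunits encoded in mitochondrial DNA were not analysed here.

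The cells came from the spleen by Ly6G, a neutrophil surface protein, and the labels of all ages call them PMN-MDSC, polymorphonuclear myeloid-derived suppressor cells. The series asks about a suppressive activity that neutrophils hold for a short time after birth. Polyadenylated RNA was sequenced from 3 libraries each at 2 days, 7 days, 14 days and 6 weeks, with 34495767 to 38795913 counts per library. The labels give no genotype, strain, sex or treatment and no number of mice per library, so the p-values here cover library-to-library spread alone, and that spread may be technical. The neutrophil marker list (15 genes) summed to between 76388 and 113577 CPM (counts scaled to the normalized library size) in each library. Its gene Ly6g stood at 93.7 ± 18.4 CPM at 2 days, 103 ± 11 CPM at 7 days, 168 ± 18.4 CPM at 14 days and 178 ± 8.51 CPM at 6 weeks (SD, n = 3 each). Means by age were 8974 to 12818 CPM for S100a8, 16621 to 18964 CPM for S100a9 and 697 (7 days) to 5974 CPM (6 weeks) for Csf3r. By the edgeR test given below, 2 of the 15 genes rose and 4 fell at 2 days against 6 weeks. At 7 days 2 rose and 5 fell, and at 14 days 1 rose and 1 fell. Of all tested genes 20.7% rose and 19.7% fell at 2 days, 24.5% and 26.6% at 7 days, and 9.68% and 9.26% at 14 days. 2-day replicate 2 and 14-day replicate 1 stood apart from their partners, with Spearman correlations across genes of 0.971 to 0.98 and of 0.986, against 0.992 and 0.994 between the remaining libraries of those ages. Transcripts of 4 Y-linked genes summed to 79.3 to 109 CPM at 2 days and 44.5 to 101 CPM at 7 days, and to at most 0.0273 CPM at the older ages. Sex and age can therefore not be told apart where a first-week age is compared with an older one, while 2 against 7 days, and 14 days against 6 weeks, compare ages alike in whether these transcripts were present. The X-linked members are Ndufa1, Ndufb11 and Cox7b.

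Oxidative phosphorylation couples the burning of nutrients to ATP synthesis in the inner mitochondrial membrane. Complex I takes electrons from NADH and complex II takes them from succinate. Both pass them through ubiquinone to complex III, cytochrome c carries them on to complex IV, and complex IV hands them to oxygen. Complexes I, III and IV pump protons, and the ATP synthase lets the protons flow back through its rotating c ring to make ATP. Neutrophils are known to draw most of their ATP from glycolysis and to hold few mitochondria when mature, whereas their dividing precursors respire more.

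Per length of transcript, complex IV and complex V genes stood highest. The median level over the 12 libraries was 27.2 CPM per kilobase for the 35 complex I genes, 49.2 for the 4 of complex II, 39.4 for the 9 of complex III, 65.1 for the 15 tested of complex IV and 70 for the 16 tested of complex V. Cox8a, a small subunit of complex IV, was at 266 CPM per kilobase. It was followed by Cox4i1 at 243, Cox6a1 at 226 and Atp5b, the catalytic beta subunit of the ATP synthase, at 210. Cycs by its own counts was at 2.62 CPM per kilobase, a value that leaves out the counts on its near-identical copies and uses a transcript of 3123 bases. These lengths are those of 1 transcript per gene, and long listed transcripts also make the values of Atp5g1 and Ndufb2 low.

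By the mean of their summed level, the subunit genes were most abundant at 7 days and least abundant at 14 days, and the sign of their median change in each comparison of ages was the same with library totals alone and with DESeq2 size factors. Summed over all members, the level was 4254, 4362 and 4340 CPM in the 2-day libraries, 4835, 4239 and 4641 CPM in the 7-day libraries, 3922, 3839 and 3722 CPM at 14 days and 4076, 4028 and 4190 CPM at 6 weeks. With the normalized library sizes, all 14-day libraries lay below all libraries of the other ages. The normalization factors were 0.918, 1.065 and 1.043 at 14 days and 0.944, 0.9733 and 0.9455 at 6 weeks. That of 2-day replicate 2 was 0.8275. This separation of the 14-day libraries therefore rests on the scaling, and sums with library totals alone are not given. 7-day replicate 2 lay within the range of the younger and older libraries, below both its partners. Of the 80 tested members, 40 had their highest mean at 7 days, 22 at 2 days, 17 at 6 weeks and 1 at 14 days, and 33 had their lowest mean at 14 days. Over the 4 ages jointly, 43 of 80 members changed (edgeR's quasi-likelihood test, Benjamini-Hochberg adjusted p under 0.05), or 53.8%, against 69.2% of all 15494 genes tested.

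At 7 days against 6 weeks, 30 of 80 members (37.5%) rose and 6 (7.5%) fell, where 24.5% of all tested genes rose and 26.6% fell (51% either way). The members that rose were 10 of 35 in complex I, 1 of 4 in complex II, 4 of 9 in complex III, 6 of 15 in complex IV, 8 of 16 in complex V, and Cycs. The median log2 fold change was 0.18 over the members and -0.01 over all tested genes. By complex it was 0.10 in complex I, -0.24 in complex II, 0.30 in complex III, 0.15 in complex IV and 0.32 in complex V. With scaling to the total counts only, the median became 0.16 over all genes and 0.35 over the members. That scaling kept the sign of each of these complex medians, and gave 40 rises and 0 falls. The rises held without each of the 12 libraries in turn for 19 of the 30 members and fell to 20 without 6-week replicate 1, a move of the count by 1.5 times. None of the 6 falls held without each library. Their count was 2 without 2-day replicate 3 or 14-day replicate 2, 3 without 7-day replicate 1 or 6-week replicate 1, 1 without 7-day replicate 2, and 0 without 7-day replicate 3 or 6-week replicate 3.

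**Figure D1:**
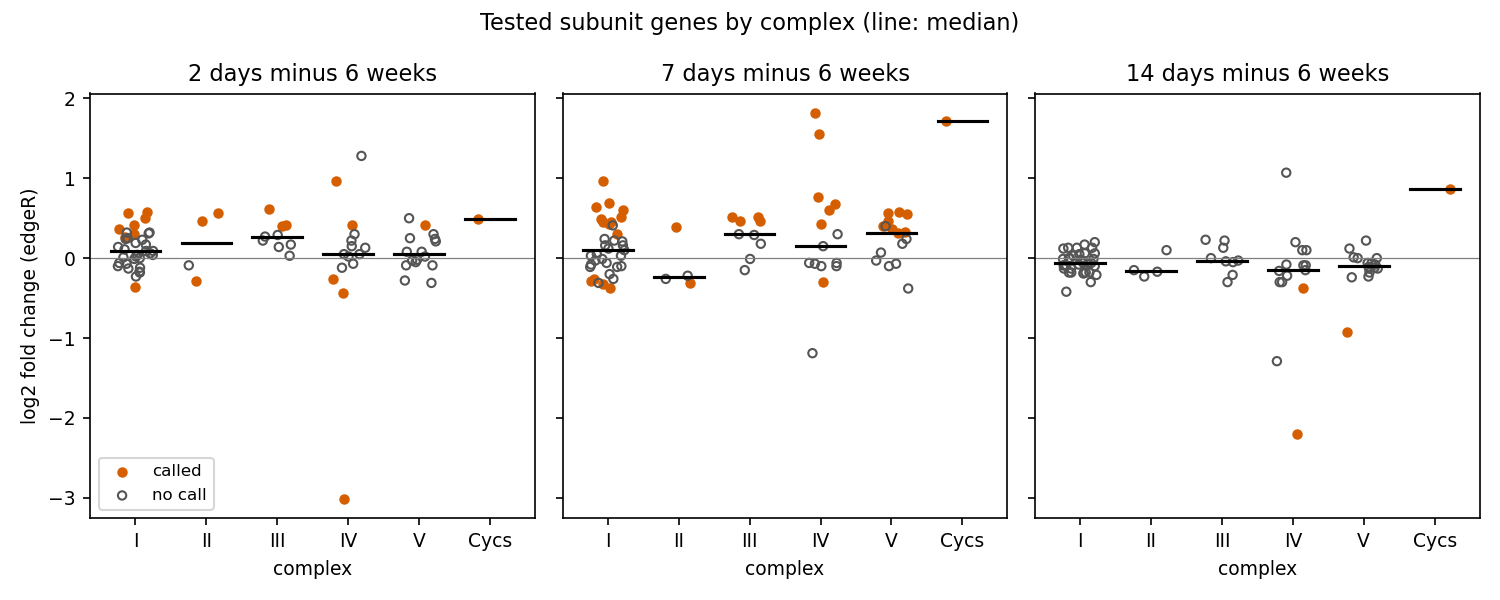
Log2 fold change against 6 weeks (vertical axis, edgeR) of each tested subunit gene, grouped by complex, at 2, 7 and 14 days. Filled points passed the test, open points did not, and the black line is the median of a complex; at 7 days the median of complex V is 0.32 and no complex V gene is called lower.

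At 2 days against 6 weeks, 16 of 80 members (20%) rose and 5 (6.25%) fell, where 20.7% of all tested genes rose and 19.7% fell (40.4% either way). The share of members that rose was thus near that of all genes. The members that rose were 7 in complex I, 2 in complex II, 3 in complex III, 2 in complex IV, 1 in complex V, and Cycs. The median was 0.12 over the members and 0.04 over all tested genes, and 0.14 over the members with library totals alone. Under that scaling 10 members rose and 3 fell, and with only both ages in the fit 7 rose and 3 fell. The rises numbered 9 without 2-day replicate 1, 5 without 2-day replicate 3 or 6-week replicate 3, 10 without 7-day replicate 3 and 8 without 6-week replicate 1. They numbered 24 without 2-day replicate 2. The falls numbered 2 without 2-day replicate 3 or 6-week replicate 1 and 3 without 14-day replicate 3 or 6-week replicate 3. Rises that held without each library were those of Ndufa8, Sdhb, Sdhd and Uqcrc2, and falls that did so were those of Cox5a and Cox6a2.

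At 14 days against 6 weeks, 1 member (1.25%) rose, which was Cycs (0 when near-identical copies were summed), and 3 (3.75%) fell, which were Cox6a2, Atp5l and Cox6b1. Of all tested genes 9.68% rose and 9.26% fell (18.9% either way). The members' median was -0.08, and -0.01 with library totals alone, against 0 over all genes. The count of rises was 2 on leaving out 2-day replicate 1, 14-day replicate 2 or 6-week replicate 2 and 3 without 2-day replicate 2 or 14-day replicate 1. The count of falls was 1 on leaving out 14-day replicate 2, 14-day replicate 3 or 6-week replicate 1. The comparisons of 2, 7 and 14 days with 6 weeks share the 6-week libraries and are given side by side only.

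Between the young ages, the step from 7 to 14 days moved the most members. From 7 to 14 days 31 of 80 members (38.8%) fell and 0 rose, where 21.9% of all tested genes fell and 24% rose (45.9% either way). At an unadjusted p under 0.05, 1 member rose in that step, and 0 rose by DESeq2 and by limma-voom. The falls came from complex I (9 of 35), complex III (5 of 9), complex IV (7 of 15), complex V (9 of 16) and Cycs, with 0 of 4 in complex II. The members' median was -0.24 and that of all genes 0.02, or -0.34 and -0.08 with library totals alone, and 19 of the 31 falls held without each of the 12 libraries. From 2 to 7 days 11 members (13.8%) rose and 6 (7.5%) fell, where 22.9% of all tested genes rose and 25.8% fell (48.7% either way). The 11 rises became 17 without 2-day replicate 1 or 2-day replicate 2, and 20 without 7-day replicate 2. The 6 falls became 3 on leaving out 2-day replicate 1, 2-day replicate 3 or 7-day replicate 3, and 10 without 2-day replicate 2. With library totals alone, the counts were 22 and 3. From 2 to 14 days 13 members (16.2%) fell and 0 rose, where 12.3% of all tested genes fell and 12.8% rose (25.1% either way). The 13 falls became 5 without 2-day replicate 3, 8 without 14-day replicate 2 and 4 without 14-day replicate 3. With library totals alone they became 7, of which 6 were among the 13, and with only both ages in the fit they became 3. At an unadjusted p under 0.05, 1 member rose, and 0 rose by DESeq2 and by limma-voom.

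A group of 8 members was higher at 7 days than at each other age: Ndufc2 and Ndufv2 of complex I, Cox7b and Ndufa4 of complex IV, Atp5b, Atp5j and Atp5j2 of complex V, and Cycs. That is 8 of 80, and 9.72% of all tested genes met the same condition. For Atp5j this rests on calls lost on leaving out any 1 of 5 libraries (7 days against 6 weeks) or 6 libraries (7 to 14 days), with no filter and with the replicate block. For Cox7b the call against 2 days was lost without 7-day replicate 3. Ndufa8 and Sdhb were higher at 2 days than at each other age. A further 26 of the 80 tested members passed no test, among them Cyc1, the cytochrome c1 of complex III with 47.2 ± 8.93, 44.4 ± 2.04, 43.1 ± 0.902 and 39.3 ± 3.72 CPM from the youngest to the oldest age, and Cox4i1 with 194, 184, 173 and 192 CPM. The shares of all tested genes that were higher at 2 days than at each other age, or that passed no test, were not counted.

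**Figure D2:**
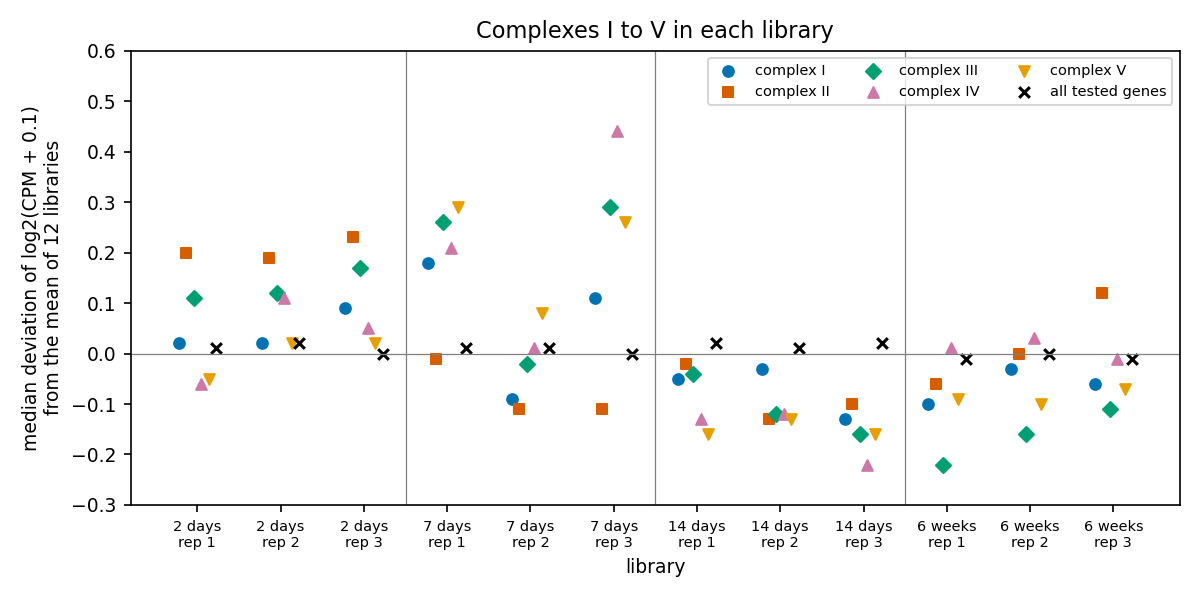
Median deviation of the tested genes of complexes I to V, and of all tested genes, in each library (vertical axis, log2(CPM + 0.1) minus the gene's mean over the 12 libraries). 7-day replicates 1 and 3 stand highest for complexes I, III, IV and V, 7-day replicate 2 lies between 0.08 and -0.11, and complex II is highest in the 2-day libraries, at 0.19 to 0.23.

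Markers of other cells and of stress moved with age, and their part in the results on the subunit genes was not tested. Against 6 weeks, 20.7% of all tested genes rose and 19.7% fell at 2 days. At 7 days 24.5% rose and 26.6% fell, and at 14 days 9.68% rose and 9.26% fell. Erythroid markers, 21 genes that all rose at 7 days against 6 weeks, summed to 4894, 2983 and 4617 CPM in the 7-day libraries, 407 to 862 CPM at 2 days, 125 to 322 CPM at 14 days and 170 to 500 CPM at 6 weeks. The transcription factor Gata1 was at 12.1 ± 5.37 CPM at 2 days and 16 ± 2.82 CPM at 7 days. It was at 0.467, 2.53 and 1.92 CPM in the 14-day libraries and 0.31 ± 0.156 CPM at 6 weeks, so it was not at 0. From 2 to 7 days Gata1 passed no test (edgeR, log2 0.4, SE 0.43, adjusted p = 0.455), although the erythroid sum was higher in all 7-day libraries than in any 2-day library. With an SE as large as the change, this test does not decide whether Gata1 changed between these ages. 7-day replicate 2 had the lowest erythroid sum of its age as well as the lowest summed subunit level. Cytosolic ribosomal protein genes (23 of 26 rose) summed to 10691, 8035 and 10094 CPM at 7 days, with replicate 2 again lowest, against 5250 to 6922 CPM at the other ages. Heat shock genes (12 of 12 rose) summed to 34138 to 39191 CPM at 7 days and to 1418 to 2648 CPM at the other ages. Cell cycle genes (13 of 14 rose) summed to 1844 to 2012 CPM at 7 days and 489 to 707 CPM at 6 weeks. They summed to 1040 to 1095 CPM at 14 days (8 rose and 0 fell against 6 weeks). Their 2-day sums were 410 to 807 CPM (3 rose and 1 fell). At 2 days the markers of mast cells, basophils and eosinophils (12 of 14 rose) summed to 2732 to 5235 CPM against 132 to 140 CPM at 6 weeks, and those of monocytes and macrophages (14 of 17 fell) to 1574 to 1902 CPM against 5071 to 5303 CPM. The monocyte and macrophage markers were also lower at 7 days (11 of 17 fell, 2814 to 2916 CPM) and 14 days (12 of 17 fell, 1903 to 2159 CPM). Of the mast cell, basophil and eosinophil markers, 12 of 14 also rose and 2 fell at 7 days (260 to 308 CPM). Primary granule and progenitor genes rose in 6 of 9 cases at 7 days against 6 weeks (median log2 1.82) and summed to 332 to 461 CPM against 125 to 171 CPM. At 2 days 6 of 9 rose as well (median log2 1.29, 285 to 678 CPM). Immediate early genes summed to 3200 to 3507 CPM at 7 days, 14546 to 23537 CPM at 2 days, 14059 to 16560 CPM at 14 days and 8056 to 11135 CPM at 6 weeks. B cell and MHC class II markers summed to 585 to 958 CPM at 2 days and 3317 to 4035 CPM at 6 weeks (8 of 13 fell). In RNA of sorted cells, fewer cells of a type and less RNA per cell cannot be told apart.

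Complex I held genes with their highest mean at 7 days and others with it at 2 days. At 7 days against 6 weeks, 2 of its 7 core genes and 8 of its 28 accessory genes rose, and 4 accessory genes fell. Of all tested genes 24.5% rose and 26.6% fell, so the share of complex I genes that rose was near that of all genes. Ndufa5, an accessory subunit of the matrix arm (chr6:24518666-24528013), was at 6.72, 6.39 and 7.31 CPM at 2 days, 10, 6.3 and 10.6 CPM at 7 days, 3.5, 4.52 and 4.1 CPM at 14 days and 4.35, 5.24 and 4.1 CPM at 6 weeks. All first-week libraries lay above those of 14 days and 6 weeks, and 7-day replicate 2 lay below the 2-day libraries. Ndufa5 was 1.96-fold higher at 7 days than at 6 weeks (log2 0.97, SE 0.2, adjusted p = 0.00161) and fell 2.22-fold from 7 to 14 days (log2 -1.15, SE 0.2, adjusted p = 0.000714). Its rise at 2 days (log2 0.58, SE 0.2, adjusted p = 0.0374) was lost on leaving out any 1 of 8 of the 12 libraries, and held on leaving out 2-day replicate 2, 7-day replicate 2, 14-day replicate 1 or 6-week replicate 2.

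Ndufb11, an accessory subunit of the membrane arm encoded on the X chromosome (chrX:20615326-20617619), was the complex I gene with the highest level per length, at 107 CPM per kilobase. It was at 91.5, 117 and 108 CPM at 2 days, 139, 104 and 138 CPM at 7 days, 84.8, 81.1 and 70.9 CPM at 14 days and 78.1, 80.2 and 78 CPM at 6 weeks. All libraries of the first week lay above those of 14 days and 6 weeks. It was 1.61-fold higher at 7 days than at 6 weeks (log2 0.69, SE 0.13, adjusted p = 0.00104) and 1.61-fold lower at 14 than at 7 days (log2 -0.69, SE 0.13, adjusted p = 0.00134). The 2-day rise of Ndufb11 (log2 0.42, adjusted p = 0.0234) was lost without 2-day replicate 3 or any 6-week library.

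Ndufa8, an accessory subunit held by disulfide bonds in the intermembrane space (chr2:36036326-36049406), had its highest mean at 2 days and its lowest at 7 days. It was at 62.7, 65.8 and 61.9 CPM at 2 days, 37.4, 37.5 and 32.1 CPM at 7 days, 44, 39.7 and 38.4 CPM at 14 days and 43.7, 42 and 43.8 CPM at 6 weeks. Its 2-day libraries stood apart from the 9 others, which lay between 32.1 and 44 CPM. Ndufa8 was 1.47-fold higher at 2 days than at 6 weeks (log2 0.56, SE 0.1, adjusted p = 0.000664) and fell 1.78-fold from 2 to 7 days (log2 -0.83, SE 0.1, adjusted p = 3.08e-05). Its 7-day level against 6 weeks (log2 -0.28, adjusted p = 0.0301) lost the call with library totals alone (log2 -0.1) and on leaving out any 1 of 8 libraries, and kept it on leaving out 2-day replicate 2, 7-day replicate 2, 14-day replicate 1 or 14-day replicate 3. Ndufa3, another accessory subunit, was at 43.2 ± 2.76 CPM at 6 weeks and 33.5 ± 2.16 CPM at 7 days (n = 3 each). It passed the test (log2 -0.37, SE 0.11, adjusted p = 0.0132) but not with library totals alone (log2 -0.19), nor on leaving out 7-day replicate 2, 7-day replicate 3 or 6-week replicate 3. Ndufa11, not among the genes chosen by rule and named after its values were seen, fell from 19.7 ± 1.64 CPM at 2 days to 12.1 ± 1.77 CPM at 7 days (log2 -0.7).

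Complex II is the only respiratory complex encoded wholly in the nucleus, and it doubles as the succinate dehydrogenase of the citric acid cycle. Its 4 genes did not move together. Sdhb, the iron-sulfur subunit (chr4:140961203-140979193), was at 84.2, 83.1 and 92.9 CPM at 2 days, 54.3, 49.3 and 49.5 CPM at 7 days, 60.7, 53.3 and 56.3 CPM at 14 days and 63.9, 60.4 and 65.1 CPM at 6 weeks. All 2-day libraries lay above the rest, and the 7-day libraries lay below those of 6 weeks. Sdhb was 1.37-fold higher at 2 days than at 6 weeks (log2 0.46, SE 0.09, adjusted p = 0.00205) and fell 1.7-fold from 2 to 7 days (log2 -0.77, SE 0.09, adjusted p = 4.71e-05). Its 7-day level against 6 weeks (log2 -0.31, adjusted p = 0.0161) lost the call with library totals alone (log2 -0.13) and on leaving out 7-day replicate 2, 7-day replicate 3, 6-week replicate 1 or 6-week replicate 3.

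Sdhd, a membrane anchor of complex II (chr9:50596357-50603812), was at 74.3, 81.5 and 81.8 CPM at 2 days, 70.3, 70.7 and 68.7 CPM at 7 days, 65.3, 54.6 and 51.5 CPM at 14 days and 55.7, 47.2 and 57.4 CPM at 6 weeks. The first-week libraries all lay above the older ones. It was 1.48-fold higher at 2 days (log2 0.57, SE 0.11, adjusted p = 0.0017) and 1.31-fold higher at 7 days than at 6 weeks (log2 0.39, SE 0.11, adjusted p = 0.0122), the latter not without 6-week replicate 2. Sdha, the flavoprotein that oxidizes succinate (chr13:74322254-74350280), was at 117, 135 and 112 CPM at 2 days, 134, 123 and 125 CPM at 7 days, 132, 131 and 133 CPM at 14 days and 158, 138 and 151 CPM at 6 weeks. All younger libraries lay below those of 6 weeks, and the 2-day difference (log2 -0.29, SE 0.1, adjusted p = 0.0353) was lost on leaving out 2-day replicate 1, 2-day replicate 3, 14-day replicate 3, 6-week replicate 1 or 6-week replicate 3. Sdhc, the other anchor, was at 43.4 ± 4.89, 38.6 ± 1.31, 39.4 ± 2.13 and 46.1 ± 7.67 CPM (n = 3 each, youngest to oldest) and passed no test.

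Complex III genes were higher in the first week where they moved. In it 3 of 9 genes rose at 2 days and 4 at 7 days against 6 weeks, and 0 fell in either comparison. Of all tested genes 20.7% rose and 19.7% fell at 2 days, and 24.5% rose and 26.6% fell at 7 days. Uqcrc2, a core protein of the matrix side (chr7:120635176-120659524), was at 79.7, 76.8 and 83.4 CPM at 2 days, 88.3, 82.9 and 90.5 CPM at 7 days, 71.8, 73.1 and 66.9 CPM at 14 days and 59.1, 61.1 and 62.1 CPM at 6 weeks. Its libraries fell into an order without overlap between 14 days and 6 weeks or between the first week and the later ages. It was 1.32-fold higher at 2 days (log2 0.4, SE 0.09, adjusted p = 0.00321) and 1.44-fold higher at 7 days than at 6 weeks (log2 0.52, SE 0.09, adjusted p = 0.000378).

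Uqcr10, a small accessory subunit (chr11:4701973-4704342), was at 31.2, 49.4 and 39.9 CPM at 2 days, 40.1, 30.9 and 42.1 CPM at 7 days, 27.5, 26.3 and 22.7 CPM at 14 days and 26, 28.5 and 24.5 CPM at 6 weeks. First-week libraries all lay above the later ones, with a wide spread. It was 1.52-fold higher at 2 days (log2 0.61, SE 0.17, adjusted p = 0.0122; not without 6-week replicate 3) and 1.43-fold higher at 7 days than at 6 weeks (log2 0.52, SE 0.17, adjusted p = 0.0213; call lost on leaving out 7-day replicate 3, 6-week replicate 1 or 6-week replicate 3). Uqcrb, which supports the ubiquinone site, rose from 18 ± 0.499 CPM at 6 weeks to 24.9 ± 2.98 CPM at 7 days (n = 3 each; log2 0.47, SE 0.13, adjusted p = 0.00919). Uqcrh, the hinge protein that binds cytochrome c1, had the highest level per length of complex III, at 106 CPM per kilobase. It fell from 66.8 ± 9.21 CPM at 7 days to 46.9 ± 3.35 CPM at 14 days (log2 -0.51, SE 0.16, adjusted p = 0.0223), a call lost on leaving out 7-day replicate 1, 7-day replicate 3, 14-day replicate 1 or 14-day replicate 3.

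Cycs had the largest rise over 6 weeks at 7 days among members with a 7-day mean of 10 CPM or more. Cytochrome c carries electrons between complexes III and IV and, when released into the cytosol, triggers apoptosis. The gene (chr6:50562563-50566538) was at 6.49, 6.12 and 5.7 CPM at 2 days, 14.2, 11.9 and 16.9 CPM at 7 days, 9.28, 7.54 and 6.9 CPM at 14 days and 4.74, 3.55 and 4.78 CPM at 6 weeks. No 7-day library overlapped with another age, and every 6-week library lay below the rest. Cycs was 3.29-fold higher at 7 days than at 6 weeks (log2 1.72, SE 0.18, adjusted p = 1.43e-05) and 1.81-fold higher at 14 days (log2 0.86, SE 0.18, adjusted p = 0.00607). Its rise at 2 days (log2 0.49, SE 0.18, adjusted p = 0.0471) was lost on leaving out any 1 of 10 libraries. The gene itself held 3680 counts, and 83.3% of the counts on Cycs and its near-identical copies lay on the copies. The gene Gm10053 held 12979 counts and the pseudogene Gm13772 held 5220. Summed over the gene and its copies, the level was 35.6 ± 2.25 CPM at 2 days, 88.6 ± 10.3 CPM at 7 days, 39.4 ± 6.29 CPM at 14 days and 31.6 ± 1.65 CPM at 6 weeks. Its 7-day rise then kept its call (log2 1.49, SE 0.13, adjusted p = 4.04e-06). The rises at 2 days (log2 0.17, adjusted p = 0.317) and 14 days (log2 0.32, adjusted p = 0.109) did not.

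**Figure D3:**
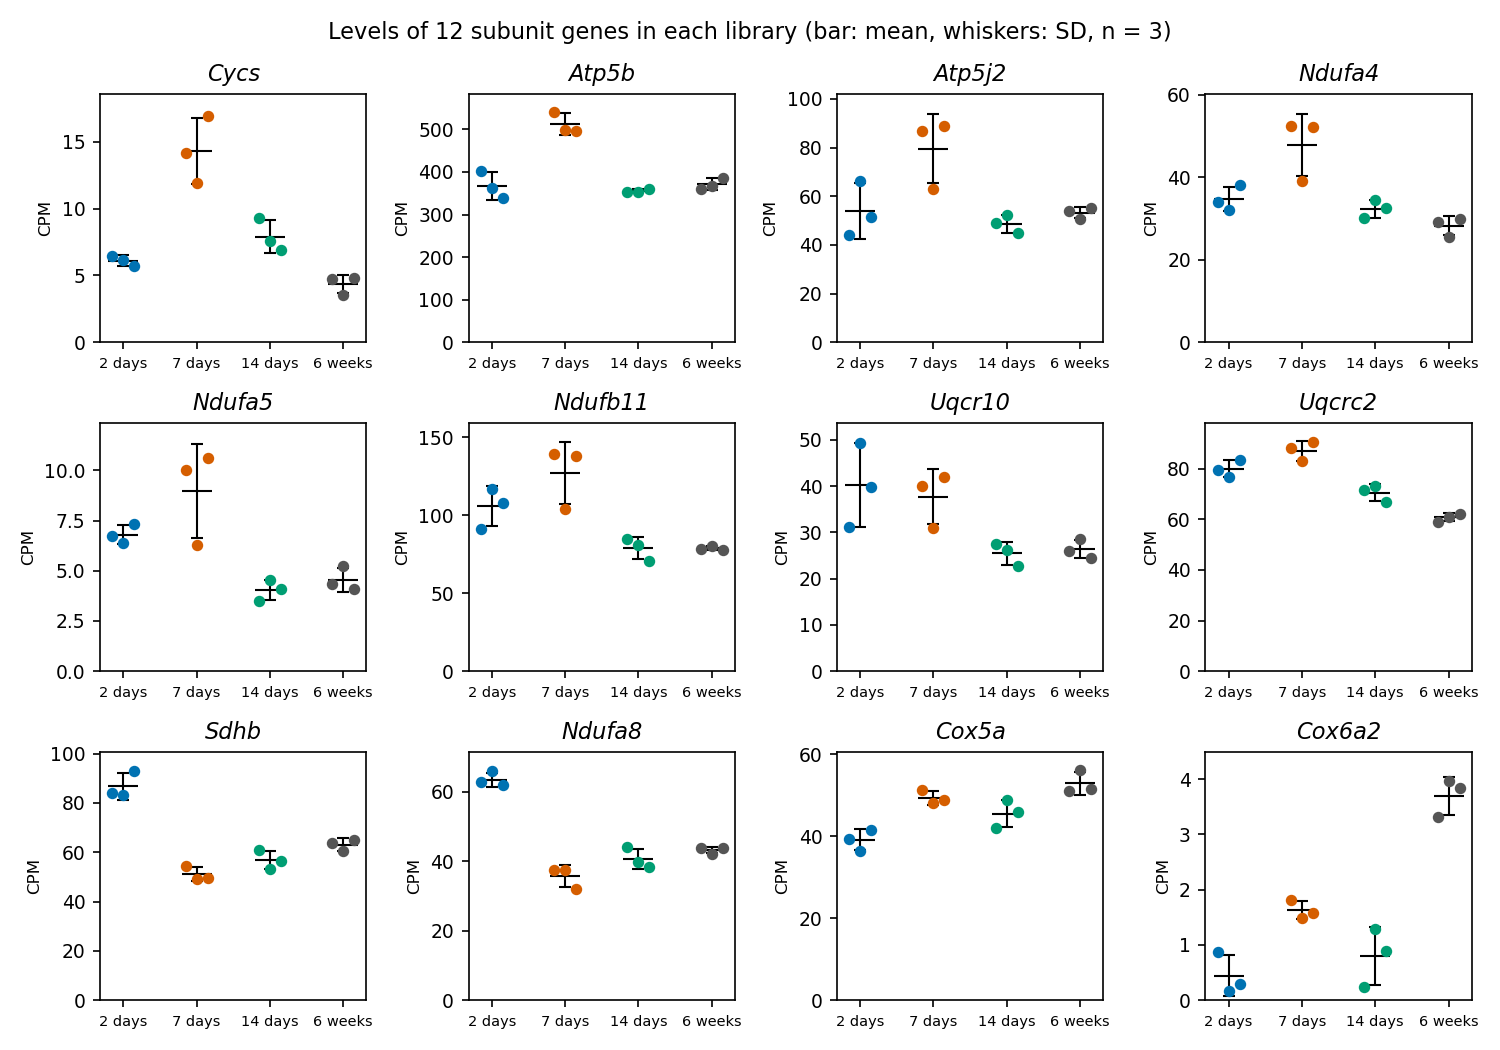
CPM (vertical axis, starting at 0) of 12 subunit genes in each library by age; points are libraries, bars are means and whiskers are SD (n = 3). Cycs, Atp5b and Ndufa4 peak at 7 days, Sdhb and Ndufa8 stand highest in the 2-day libraries, and Cox6a2 is highest at 6 weeks.

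Complex IV held both the highest and the lowest level per kilobase among tested members, Cox8a and Cox4i2, while by CPM Atp5b and Atp5a1 of complex V stood highest. It has tissue isoforms for several subunits. Of its 8 tissue isoforms, 3 were tested, Cox4i2, Cox6a2 and Cox6b2, and Cox7b2 and Cox8c had 0 counts in all libraries, which allows up to 3 counts. Among the 12 widely expressed genes, 4 rose and 1 fell at 7 days against 6 weeks, where 24.5% of all tested genes rose and 26.6% fell. Ndufa4 (chr6:11900292-11907497) was at 34, 32.1 and 38 CPM at 2 days, 52.3, 39.2 and 52.1 CPM at 7 days, 30, 34.4 and 32.6 CPM at 14 days and 29.1, 25.5 and 29.9 CPM at 6 weeks. Each 7-day library lay above all others. Ndufa4 was 1.7-fold higher at 7 days than at 6 weeks (log2 0.77, SE 0.13, adjusted p = 0.00041) and 1.38-fold higher than at 2 days (log2 0.46, SE 0.13, adjusted p = 0.0102).

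Cox5a, a subunit that faces the matrix (chr9:57521274-57532426), was lowest at 2 days. It was at 39.3, 36.4 and 41.6 CPM at 2 days, 51.2, 48 and 48.8 CPM at 7 days, 42, 48.7 and 45.9 CPM at 14 days and 51.1, 56.2 and 51.5 CPM at 6 weeks. Its 2-day libraries lay below all others. Cox5a was 1.35-fold lower at 2 days than at 6 weeks (log2 -0.44, SE 0.1, adjusted p = 0.0031). Cox8a, the member with the highest level per length, was at 164 ± 14.2 CPM at 6 weeks and 133 ± 1.13 CPM at 7 days (n = 3 each; log2 -0.3, adjusted p = 0.0367). That call was lost with library totals alone (log2 -0.13) and on leaving out any 1 of 8 libraries, and kept on leaving out 2-day replicate 1, 2-day replicate 2, 14-day replicate 1 or 6-week replicate 2.

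Isoform use was compared as the log2 ratio of 2 isoforms in each library. Of 10 pairs, 5 had both genes tested, and the p-values of an exact permutation test over the 15400 ways to split 12 libraries into 4 groups of 3 were adjusted over these 5. Cox4i1, the common form of subunit 4, exceeded Cox4i2, a form known from lung and induced by low oxygen, by a log2 ratio of 8.96 ± 0.137 at 2 days, 8.46 ± 0.224 at 7 days, 10.26 ± 0.544 at 14 days and 9.82 ± 0.372 at 6 weeks (exact permutation p = 0.000519, adjusted p = 0.0026). The size of this ratio rests on the pseudocount of 0.1 CPM. With 1 CPM it was 7.24, 7.02, 7.38 and 7.43 (adjusted p = 0.0128, exact permutation), with the highest mean at 6 weeks in place of 14 days. The ratio was lower in the 6 first-week libraries than in the 6 later ones, and Cox4i2 had 8 to 19 counts in the former and 0 to 7 in the latter. For subunit 6a, the ratio of the common Cox6a1 to the heart and muscle form Cox6a2 was 7.96 ± 0.976, 6.28 ± 0.0259, 7.35 ± 1.05 and 5.2 ± 0.137 from the youngest to the oldest age (exact permutation p = 0.0151, adjusted p = 0.0377). With a pseudocount of 1 CPM it was 6.38, 5.68, 6.18 and 4.91 (adjusted p = 0.00585, exact permutation).

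Cox6a2 was at 0.868, 0.165 and 0.301 CPM at 2 days, 1.81, 1.48 and 1.58 CPM at 7 days, 0.233, 1.28 and 0.89 CPM at 14 days and 3.32, 3.97 and 3.83 CPM at 6 weeks. Its 6-week libraries, with 119 to 150 counts, lay above all others. Cox6a2 was 8.08-fold lower at 2 days (log2 -3.01, SE 0.56, adjusted p = 0.00105) and 4.59-fold lower at 14 days than at 6 weeks (log2 -2.2, SE 0.53, adjusted p = 0.0126). Cox6a1 itself stayed between 115 and 151 CPM in all libraries. For subunit 6b, the ratio of the common Cox6b1 to Cox6b2, a form known from testis, was 4.8 ± 0.602, 4.27 ± 0.345, 4.42 ± 0.333 and 5.87 ± 0.742 (exact permutation p = 0.027, adjusted p = 0.045), and 4.38, 3.99, 4.04 and 5.13 with a pseudocount of 1 CPM (adjusted p = 0.0494). Cox6b2 was 2.96-fold higher at 7 days than at 6 weeks (3.99 ± 1.21 against 1.35 ± 0.542 CPM; log2 1.56, SE 0.35, adjusted p = 0.00278).

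The ratio of Cox7a2 to its relative Cox7a2l, known for a role in supercomplexes, was -2.04 ± 0.0867, -1.46 ± 0.327, -1.76 ± 0.0544 and -1.95 ± 0.27 (exact permutation p = 0.0405, adjusted p = 0.0506), and the adjusted p was 0.0494 with a pseudocount of 1 CPM in place of 0.1. Cox7a2 was at 47.3 ± 9.82 CPM at 7 days and 35.1 ± 1.16 CPM at 6 weeks, and Cox7a2l at 128 ± 4.31 and 138 ± 23.6 CPM. Cox7a1, the muscle form, had 2 to 16 counts per library, and Cox8b had 0 to 2. Ndufa4l2, known as a low-oxygen target, had 43, 4 and 38 counts at 2 days and 0 to 7 at the other ages, too few for the filter.

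**Figure D4:**
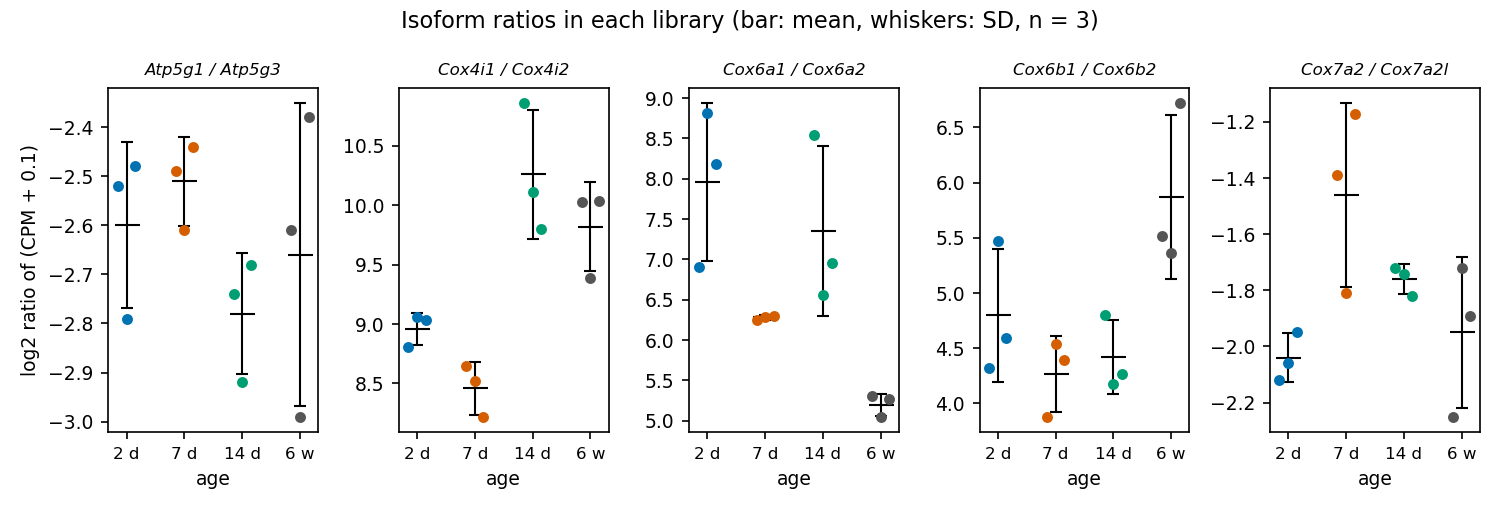
Log2 ratio of 2 isoforms of a subunit (vertical axis, CPM + 0.1 of the first over that of the second) in each library by age; points are libraries, bars are means and whiskers are SD (n = 3). The Cox6a1 to Cox6a2 ratio is lowest at 6 weeks, with a mean of 5.2, and the Cox4i1 to Cox4i2 ratio is lowest at 7 days, with a mean of 8.46.

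In complex V, 8 of 16 tested genes rose at 7 days against 6 weeks and 9 of 16 fell from 7 to 14 days. Of all tested genes 24.5% rose in the first comparison and 21.9% fell in the second. At 7 days 2 of 5 genes of the catalytic head, both tested genes of the c ring and 4 of 8 genes of the stator and membrane part rose against 6 weeks, and 0 fell. Summed over its 17 genes, complex V was at 1791, 1587 and 1703 CPM at 7 days and at 1265 to 1430 CPM in the 9 other libraries, without overlap. Atp5b (chr10:128083273-128090391) was at 403, 362 and 338 CPM at 2 days, 541, 498 and 496 CPM at 7 days, 353, 353 and 360 CPM at 14 days and 361, 366 and 387 CPM at 6 weeks. Its 7-day libraries lay apart from all the rest. Atp5b was 1.38-fold higher at 7 days than at 6 weeks (log2 0.46, SE 0.1, adjusted p = 0.00293), 1.39-fold higher than at 2 days (log2 0.48, SE 0.1, adjusted p = 0.0026) and fell 1.44-fold by 14 days (log2 -0.53, SE 0.1, adjusted p = 0.00161).

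Atp5j2, the membrane subunit f (chr5:145183698-145192062), was at 43.9, 66.4 and 51.5 CPM at 2 days, 86.8, 63.1 and 89 CPM at 7 days, 48.8, 52.1 and 44.8 CPM at 14 days and 54.1, 50.8 and 55 CPM at 6 weeks. 7-day replicate 2 lay below 2-day replicate 2, and the 7-day libraries otherwise lay highest. Atp5j2 was 1.49-fold higher at 7 days than at 6 weeks (log2 0.58, SE 0.16, adjusted p = 0.00931). Atp5o, the subunit that ties the stator to the catalytic head (chr16:91925214-91931687), was at 63.4, 54 and 59.2 CPM at 7 days and at 36.6 to 52.6 CPM in the other libraries. It was 1.48-fold higher at 7 days than at 6 weeks (log2 0.57, SE 0.11, adjusted p = 0.00141) and fell 1.47-fold by 14 days (log2 -0.56, SE 0.11, adjusted p = 0.00193).

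The c ring is built from copies of 1 small protein made by 3 genes, Atp5g1, Atp5g2 and Atp5g3, whose mature proteins are known to be the same. Few counts were assigned to Atp5g2: the gene (chr15:102662864-102672352) had 261 counts over all libraries, 240 of them in 14-day replicate 3. Its processed pseudogene Gm10231 had 26021 and the transcribed pseudogene Gm10175 had 481. The 441 coding bases of Atp5g2 recurred in Gm10231 with 100% identity, so reads within them fit both. The last 90 coding bases, stop codon included, are shown for the 3 genes and the pseudogene from the GRCm38 annotation (GENCODE M21), all on the minus strand of the genome and written 5′ to 3′ along the gene. Capitals mark bases that differ from Atp5g2.
Atp5g2: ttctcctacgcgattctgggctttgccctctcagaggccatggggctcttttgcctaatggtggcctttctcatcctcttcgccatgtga
Gm10231: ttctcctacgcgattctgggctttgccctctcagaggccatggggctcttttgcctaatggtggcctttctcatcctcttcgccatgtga
Atp5g1: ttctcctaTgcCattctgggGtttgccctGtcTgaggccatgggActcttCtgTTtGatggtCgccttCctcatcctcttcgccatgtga
Atp5g3: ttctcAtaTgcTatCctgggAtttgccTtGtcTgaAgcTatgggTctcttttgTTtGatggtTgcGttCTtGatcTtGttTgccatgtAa
These lie at chr15:102663014-102663103 for Atp5g2, chr17:5816200-5816289 for Gm10231, chr11:96073104-96073193 for Atp5g1 and chr2:73908593-73908682 for Atp5g3. Gm10231 had 0 differences from Atp5g2 over this stretch, Atp5g1 had 12 and Atp5g3 had 23.

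Summed with its copies, Atp5g2 stood at 64.5, 47.5 and 60.1 CPM at 2 days, 85.4, 66.1 and 76.9 CPM at 7 days, 46.4, 52.4 and 55.6 CPM at 14 days and 56.3, 53.8 and 52.9 CPM at 6 weeks. All 7-day values lay above the others. The summed level was higher at 7 days than at 6 weeks (log2 0.49, SE 0.13, adjusted p = 0.00855) and fell by 14 days (log2 -0.56, SE 0.13, adjusted p = 0.00427). The filter on low counts had kept the gene itself out of the test. Atp5g3 (chr2:73908447-73911326), the most abundant of the 3 by counts assigned to the gene itself, was at 78.8 ± 13.2, 78.2 ± 6.38, 59.2 ± 2.48 and 59.1 ± 6.09 CPM (n = 3 each, youngest to oldest). Its 7-day rise over 6 weeks (log2 0.4, SE 0.13, adjusted p = 0.0213) was lost on leaving out 7-day replicate 1, 6-week replicate 1 or 6-week replicate 3.

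Atp5g1 was at 13.2 ± 3.5, 13.7 ± 1.77, 8.55 ± 0.869 and 9.32 ± 1.5 CPM (n = 3 each, youngest to oldest). It was 1.47-fold higher at 7 days than at 6 weeks (log2 0.55, SE 0.2, adjusted p = 0.0355), a call lost on leaving out 7-day replicate 1, 7-day replicate 3, 6-week replicate 1 or 6-week replicate 2. Of the counts on Atp5g1 and its pseudogene Gm10039, 44.2% lay on the pseudogene, and the summed 7-day rise was of the same size (log2 0.57, SE 0.2, adjusted p = 0.0305). The ratio of Atp5g1 to Atp5g3 passed no test (exact permutation p = 0.422, adjusted over the same 5 pairs 0.422), with means between -2.78 and -2.51.

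Atp5l, the membrane subunit g (chr9:44912557-44920742), fell at 14 days against 6 weeks by its own counts and passed no test when summed with its copies. It was at 46.4, 28.3 and 32.3 CPM at 14 days and 81.2, 57.4 and 64.8 CPM at 6 weeks (log2 -0.93, SE 0.23, adjusted p = 0.0145), lost on leaving out 14-day replicate 2, 14-day replicate 3 or 6-week replicate 1. Of the counts on Atp5l and its copies 44.1% lay on the copies, nearly all on the pseudogene Gm10221 with 18073 counts. With them the values were 77.2 ± 10.2 and 101 ± 15.7 CPM (log2 -0.39, SE 0.19, adjusted p = 0.17). Over all members, 25 shared at least 200 bases at 95% identity or more with another annotated transcript, 8 had over 10% of the joint counts on the other gene, and 3, Ndufb4, Atp5g2 and Cycs, had most of them there. Ndufb4 had 1087 counts against 8563 on Ndufb4c, and neither the gene nor the sum passed a test.

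**Figure D5:**
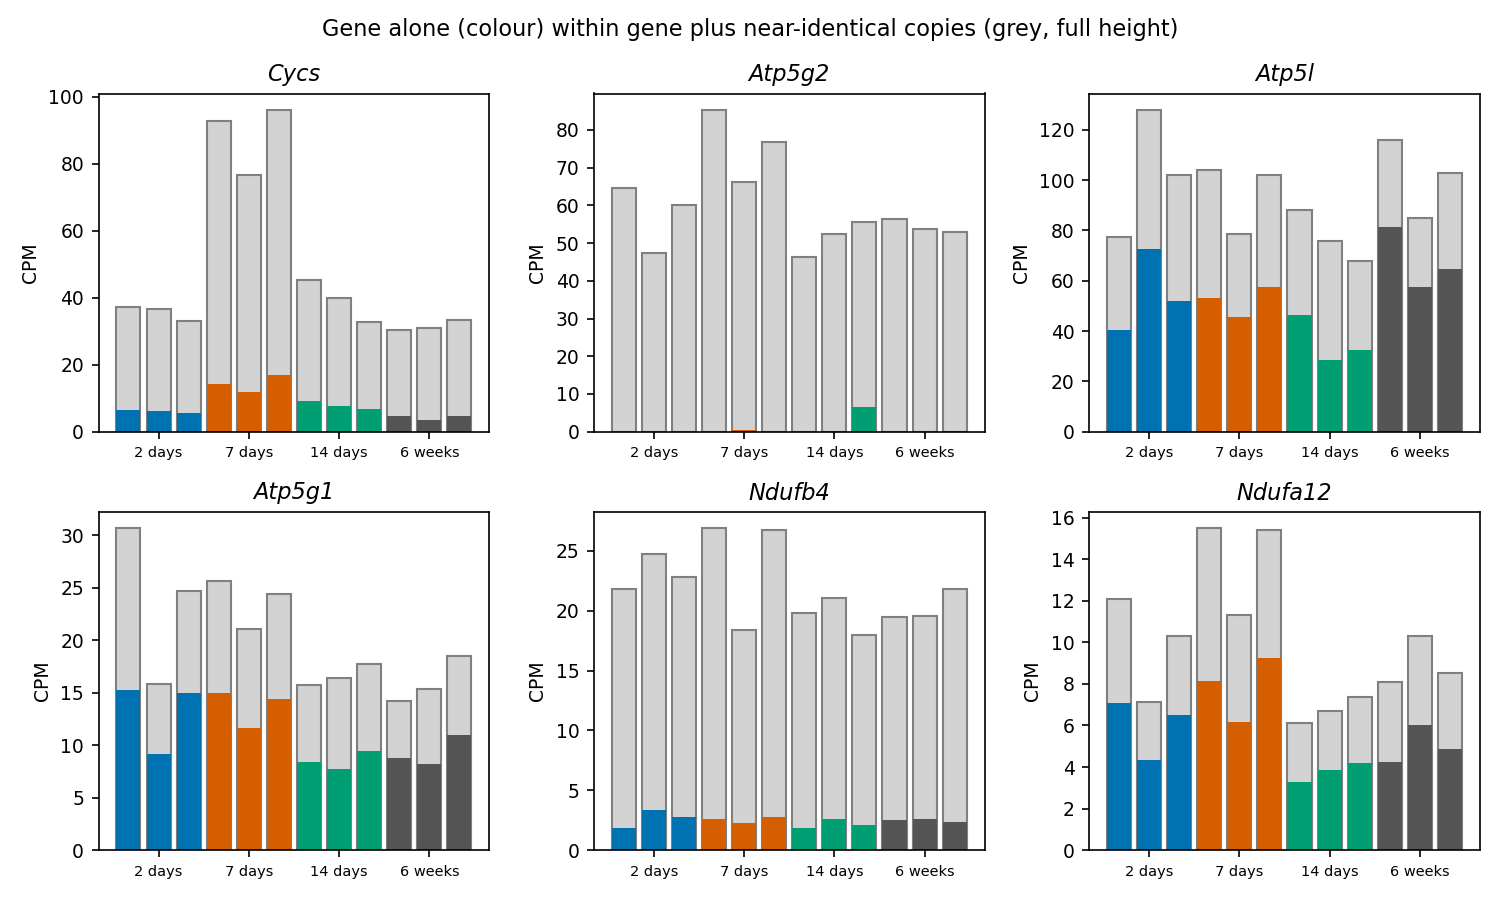
CPM in each library (bars, vertical axis from 0) of 6 subunit genes alone (coloured part, from 0) and summed with their near-identical copies (full grey height), ordered by age with 3 libraries each. For Cycs, Atp5g2 and Ndufb4 most of the joint counts lie on copies, and the summed Cycs level is highest at 7 days, with a mean of 88.6 CPM.

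Promoters were searched because many respiratory genes are known targets of NRF1, a factor that binds a palindrome rich in G and C. Windows of 300 bases around the start site were matched for 69 of the 86 members (RefSeq, GRCm38.p6) and read on both strands. These 69 include the untested Cox7a1, Cox7b2, Cox8b and Atp5g2. The NRF1 core (GCGCA, any base, then GCGC) lay in 17 of the 69 (24.6%), Atp5g2 among them. It lay in 10.9% of the 10545 tested protein-coding genes with a window and in 5.19% of all 27025 genes with a window. The ETS core CCGGAAG lay in 16 (23.2%, against 19.2% and 9.93%). The YY1 core AAGATGGC lay in 10 (14.5%, against 4.99% and 3.19%), 7 of them in complex I and 3 in complex V. As an example, 60 bases upstream of the start are shown for 3 members, with the NRF1 match in capitals. They are from the minus strand and written 5′ to 3′ along the gene.
Sdha: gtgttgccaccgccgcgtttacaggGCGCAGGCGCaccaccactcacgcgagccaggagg
Sdhd: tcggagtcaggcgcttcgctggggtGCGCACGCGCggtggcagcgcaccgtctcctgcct
Cox6a1: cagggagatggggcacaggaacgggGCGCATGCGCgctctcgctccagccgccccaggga
They lie at chr13:74350304-74350363, chr9:50603894-50603953 and chr5:115349086-115349145. The matches end 89, 70 and 153 bases before the start site. At 2 days against 6 weeks Sdhd was called higher and Sdha lower. The Sdha call was lost on leaving out any 1 of 5 libraries, with no filter, with the replicate block and with only both ages in the fit. At 7 days against 6 weeks, 24.5% of all tested genes rose and 26.6% fell. Among tested members with the core, 4 of 16 rose and 2 fell in that comparison (median log2 0.07), and among those without it, 22 of 49 rose and 4 fell (median 0.22). A match describes letters only, and the difference between these groups was not tested.

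Other genes of mitochondrial energy metabolism were counted from lists chosen by function. Of all tested genes, 24.5% rose and 26.6% fell at 7 days against 6 weeks (median log2 -0.01). At 7 days against 6 weeks, 7 of 17 citric acid cycle genes rose and 2 fell (median log2 0.44). Their summed level was nonetheless lower at 7 days (1047 to 1067 CPM) than at 6 weeks (1090 to 1111 CPM). Mdh2, the mitochondrial malate dehydrogenase, was 137 ± 9.51 CPM at 7 days and 242 ± 17.9 CPM at 6 weeks (log2 -0.83, SE 0.1, adjusted p = 4.2e-05), and Dld, a shared subunit of the dehydrogenase complexes, 60.6 ± 5.07 and 37.4 ± 0.337 CPM (log2 0.7, SE 0.1, adjusted p = 0.000119). Of 44 tested assembly factors 6 rose and 6 fell (median 0.06). Ndufaf4, a complex I assembly factor, was at 6.54 ± 1.34 against 2.79 ± 0.53 CPM (log2 1.23, SE 0.24, adjusted p = 0.00118). Mitochondrial ribosomal protein genes rose in 12 of 30 cases and fell in 3 (median 0.33), and regulators of mitochondrial biogenesis rose in 6 of 16 and fell in 2 (median 0.26). Gabpa, an ETS factor of respiratory promoters, was at 54.8 ± 2.16 against 39.2 ± 2.37 CPM (log2 0.48, SE 0.1, adjusted p = 0.00138).

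More glycolysis genes fell than rose: 1 of 18 rose and 11 fell at 7 days against 6 weeks (median log2 -0.46, and -0.29 with library totals alone). Of all tested genes 24.5% rose and 26.6% fell. The glucose transporter Slc2a1 was at 48.8 ± 4.89 CPM at 7 days and 167 ± 57.9 CPM at 6 weeks (log2 -1.77, SE 0.22, adjusted p = 5.07e-05). Ucp2, an uncoupling protein of the inner membrane that is abundant in leukocytes, was at 711 ± 42.3 CPM at 7 days, 1363 ± 104 CPM at 2 days, 1520 ± 75.4 CPM at 14 days and 1666 ± 36.4 CPM at 6 weeks (7 days against 6 weeks log2 -1.23, SE 0.12, adjusted p = 7.73e-06). Atpif1, which inhibits the ATP synthase when it runs in reverse, was at 54.3, 34.9 and 56.6 CPM at 7 days and at 22.8 to 25.4 CPM at 6 weeks (log2 1, SE 0.15, adjusted p = 0.000216). Ndufab1, the acyl carrier protein of complex I outside the name pattern, was at 12.8 ± 1.2 CPM at 7 days and 7.14 ± 0.797 CPM at 6 weeks (log2 0.84, SE 0.16, adjusted p = 0.000897). Since most subunit transcripts are short, short genes at large give a reference. Of 847 tested protein-coding genes with transcripts under 1000 bases, 230 rose and 197 fell at 7 days against 6 weeks (median 0.08, members 0.18). From 7 to 14 days 130 of these short genes rose and 260 fell (median -0.14, members -0.24). The median of the short genes was -0.1 at 14 days against 6 weeks (members -0.08) and -0.13 from 2 to 14 days (members -0.17). The median of the short genes had the sign of the members' median in these 4 comparisons, and the part of transcript length in the members' values was not tested.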

How the data were processed

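RNA-seq of Ly6G+ spleen cells at 4 ages was analysed, 3 libraries per age, grouped by the age in the labels. Whole-number counts per gene are the values as deposited. The tools RSEM 1.2.3 and DESeq2 and the build mm10 are listed in the submitters' processing notes, where their roles are not stated. The counts may be rounded RSEM estimates, which divide reads among similar genes, and strand is not stated, so reads of overlapping or antisense genes cannot be told apart. Symbols came from GENCODE M21 (GRCm38) for 37570 of 38887 identifiers.

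CPM use library sizes normalized by trimmed mean of M-values. The main test was edgeR 4.0.16 (R 4.3.3, glmQLFit, glmQLFTest), 1 model over 12 libraries with age as the only term, on 15494 genes past filterByExpr (minimum count 10), Benjamini-Hochberg over all genes, threshold 0.05. The procedure was also run on simulated counts in which few genes changed, at 2 days against 6 weeks. It called 56.82% of log2 changes of 1, 60% of -1, 85.42% of 2 and 82.98% of -2. Of its calls 3.65% were unchanged genes. Smaller changes were not simulated. Alternatives were DESeq2 1.42.0, limma-voom (limma 3.58.1), other scalings, no filter, a replicate block, 2 ages only, left-out libraries and, added after seeing the data, summed copies and 2 libraries left out together. Copies were found by blastn.

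Members and lists were chosen with earlier results of these data known. Members given in full were, in complexes I, III, IV and V, the 3 with the smallest joint p and the highest level per length, all of complex II, Cyc1, Cycs, isoform pairs, and for each age the called member with the largest rise and fall among those whose mean at the higher of both ages reached 10 CPM. From other lists, at most the 2 genes with the smallest joint p are named. Others are named where a count needs them and were chosen after their values were seen.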

Additional observations from a re-analysis of the deposited data

Results flagged for a closer look

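Some reads lay on genes that were not members but nearly share a member's sequence, and stood above the 3 counts that a count of 0 allows. Gm10231, a pseudogene copy of Atp5g2, held 26021 counts over the 12 libraries. Gm10053 and Gm13772, copies of Cycs, held 12979 and 5220. Ndufb4c, a pseudogene copy of Ndufb4, held 8563. Whether these reads came from the copies or from the member genes was not tested.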

How the results depend on the processing

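Of the values of named members under the alternatives, 3649 kept their side of the threshold, 225 lost the call and 94 gained it. In 0 cases did the direction reverse where either fit gave a call. Changes of sign between values without a call were not counted. Without 1 library, members called at any age ranged from 31 to 54. Rises and falls against 6 weeks ranged from 5 to 24 and 2 to 7 at 2 days, 20 to 34 and 0 to 9 at 7 days, and 1 to 3 and 1 to 4 at 14 days. From 2 to 7 days they ranged from 9 to 20 and 3 to 10, from 7 to 14 days from 0 to 1 and 21 to 38, and from 2 to 14 days from 0 to 1 and 4 to 19.

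The causes of the following shifts were not tested. Library totals alone gave 10 rises and 3 falls at 2 days against 6 weeks, 0 falls at 7 days, 22 rises and 3 falls from 2 to 7 days and 7 falls from 2 to 14 days. No filter gave 9 rises and 3 falls at 2 days, 1 fall at 7 days, 3 rises at 14 days, 1 rise each from 7 to 14 and from 2 to 14 days, and 7 falls from 2 to 14 days. DESeq2 gave 10 falls at 7 days, 3 rises and 5 falls at 14 days, 17 rises from 2 to 7 days and 20 falls from 2 to 14 days, and limma-voom gave 2 rises at 14 days. Fitting only the 2 ages compared gave 7 rises and 3 falls at 2 days, 2 rises at 14 days, 3 falls from 2 to 7 days and 3 falls from 2 to 14 days. Summed copies gave 0 rises at 14 days. Without 2-day replicate 2 and 14-day replicate 1 together, there were 29 rises at 2 days, 10 falls at 7 days, 3 rises and 5 falls at 14 days, 18 rises and 10 falls from 2 to 7 days, 2 rises from 7 to 14 days, and 1 rise and 22 falls from 2 to 14 days.

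The replicate block gave 3 falls at 2 days against 6 weeks, and other counts within 1.5 times. Of 18 correlations between same-numbered libraries, from -0.25 to 0.2, 2 exceeded 0.1, and 1 of 12 libraries correlated best with its own number, so the numbers were not used for pairing. Small differences between ages, and members under about 10 counts per library, are limited by the 3 libraries per age.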
